A study of Cannabis sativa with 6 samples.

Results

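In flowers of feral hemp (Cannabis sativa), 68 of 29777 listed genes were female-enriched: the lowest of 3 female libraries held at least 5 CPM and at least 4 times the CPM of the highest of 3 male libraries. CPM is a gene's count per 1000000 gene counts of its library. The 68 genes were 0.539% of the 12620 genes that reached 5 CPM in every female. The measured female and male levels themselves chose the genes, so their difference between the sexes is a description, and no test of it is read as a result.

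The female group is made of flower libraries from Knox, Madison and Merick plants, and the male group is made of flower libraries from the same 3 Nebraska locations, 1 library for each sex and location. The labels list no treatment and no genotype beyond the feral origin, and all plants were raised in pots and brought to flower by a shortened day. The labels give no plant age and no flower stage, and they do not say whether RNA came from single or pooled plants, so p-values below measure only the spread between these libraries. Counts are bulk values: fewer cells of a type and less RNA per cell cannot be told apart.

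Hemp is dioecious, with X and Y sex chromosomes. A female flower consists mainly of an ovary with long stigmas, wrapped in a bract that bears glandular trichomes, the hair-like glands that make cannabinoids and terpenes. A male flower consists mainly of stamens that shed pollen. Genes enriched in female flowers can therefore belong to the pistil, to the bract or to its glands. The reference gene table used here pairs none of the 68 identifiers with a description or a common name, so no role is given to any of them and no marker of a flower organ could be read. It holds 62 of them, of which 61 are protein coding and 1, LOC115714132, is a long non-coding RNA.

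Libraries held 26945432 to 38672535 gene counts in females and 40334171 to 46045338 in males. Correlations of log2(CPM + 0.1) between libraries were 0.91 to 0.94 among females and 0.79 to 0.93 among males, the low end being set by the Merick male. The Knox and Madison males correlated at 0.93. Some of the counts and medians that move with the Merick male are also given without it.

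As a group, the female-enriched genes took 3.20% of all gene counts in the Knox female, 1.82% in the Madison female and 3.08% in the Merick female. In the males they took 0.110% (Knox), 0.118% (Madison) and 0.139% (Merick). The median gene of the group stood at 60.0, 54.9 and 51.7 CPM in the Knox, Madison and Merick females, against 1.83, 1.51 and 3.16 CPM in the Knox, Madison and Merick males. The reads were unevenly divided among the genes, since the 8 genes with the highest mean female CPM held 66.5% to 74.3% of the group's counts in a female library and 70.2% to 73.8% in a male library.

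Low is a relative term for these genes in males. The highest male stayed under 1 CPM for 10 of the 68 genes and between 1 and 5 CPM for another 28. The other 30 genes reached 5 CPM or more in at least 1 male, and 8 of them reached 50 CPM. In the Knox and Madison males alone, 21 genes stayed under 1 CPM and 24 reached 5 CPM. They are therefore called female-enriched here, and not female-only.

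**Figure D1:**
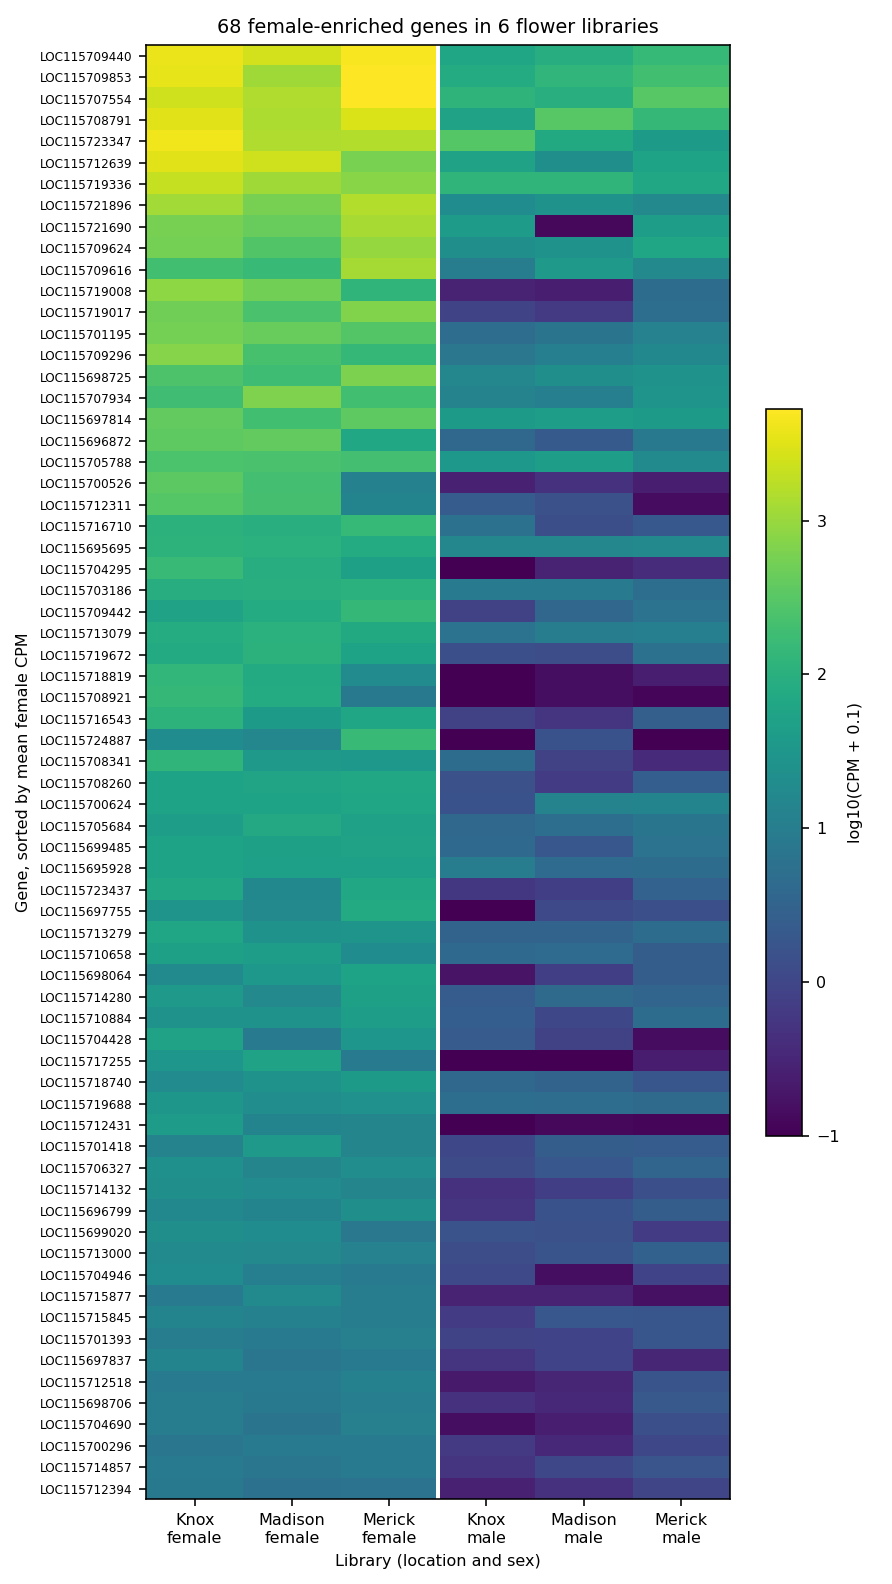
Level of each of the 68 female-enriched genes in 6 flower libraries, as log10(CPM + 0.1); rows are genes sorted by mean female CPM, columns are libraries with females on the left. The 3 female columns are brighter in every row, and the male columns still reach 309 CPM in the rows at the top.

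The 8 genes that took the most reads in females all kept a measurable male level. CPM does not correct for transcript length, so their order is one of reads and not of transcripts. LOC115709440, a protein-coding gene on chromosome 3, stood at 3896, 2501 and 4879 CPM in the Knox, Madison and Merick females, against 61.5, 88.2 and 146 CPM in the Knox, Madison and Merick males. LOC115721896, on chromosome 9, stood at 1184, 566 and 1501 CPM in the same females and at 19.6, 25.1 and 16.6 CPM in the same males. In both genes the 3 males lay far below the lowest female, which was the Madison library.

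LOC115709853, on chromosome 3, stood at 3519, 1132 and 5181 CPM in the Knox, Madison and Merick females and at 82.4, 129 and 200.0 CPM in the males of those locations. LOC115708791, also on chromosome 3, stood at 3215, 1391 and 2863 CPM in the females and at 52.6, 309 and 139 CPM in the males. The Madison library was the lowest female in both genes, while the highest male was from Merick in the first and from Madison in the second.

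LOC115707554, on chromosome 1, stood at 2460.5, 1449 and 5341 CPM in the Knox, Madison and Merick females, against 118, 93.9 and 309 CPM in the males of those locations. Here the Merick library was the highest in each sex. LOC115723347, on chromosome 9, stood at 4252, 1489 and 1529.6 CPM in the females and at 301, 73.0 and 37.4 CPM in the males, with the Knox library highest in each sex. LOC115719336, on chromosome 2, stood at 2018, 1109 and 782 CPM in the females and at 124, 124 and 69.6 CPM in the males. Its Merick library was the lowest in each sex. LOC115712639, on the X chromosome, is described with the genes that were low in the Merick female.

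The genes furthest inside the rule, LOC115712431 and LOC115708921, had almost no male reads. The ratio of the lowest female to the highest male ran from 4.00 to 565, with a median of 6.60. It was under 10 for 49 genes and at least 20 for 12, among them LOC115721896 with 2584 reads over all males. Without the Merick male the median was 10.6, leaving out 1 gene with no reads in either other male. LOC115712431, on chromosome 4, had 38.9, 13.8 and 14.0 CPM in the Knox, Madison and Merick females and 2 reads over all 3 males, a pooled ratio of 1310 with an exact Poisson 95% interval of 362 to 10828. LOC115708921, on chromosome 3, had 142, 79.6 and 8.12 CPM in the same females and 3 reads over all males, a pooled ratio of 2928 (1002 to 14203). These intervals cover counting error only. With so few male reads the size of either ratio is poorly set, which their width shows.

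Further genes with large ratios had low male levels, some of them with no reads in the Knox male. LOC115704295, on X, had 160, 89.4 and 49.0 CPM in the Knox, Madison and Merick females, and 0, 0.19 and 0.30 CPM in the males of those locations. LOC115719017, on X, had 496, 235 and 693 CPM in the females, against 0.84, 0.54 and 5.06 CPM in the males. Its Merick male lay above both other males, and its Merick female above both other females. LOC115715877, on chromosome 5, had 8.39, 17.2 and 9.65 CPM in the females and 0.20, 0.19 and 0.07 CPM in the males. LOC115718819 and LOC115717255, on chromosomes 2 and 5, had 9 and 6 reads over all males and none in the Knox male. Of these reads, the Merick male held 7 and 6.

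The thresholds cut through a continuous range. Just inside the 4-fold threshold lay LOC115714280, LOC115698706 and LOC115719688, with ratios of 4.00, 4.04 and 4.06. Just outside it lay LOC115711996, LOC115714455 and LOC115712493, with ratios of 3.98, 3.98 and 3.95. Just inside the 5 CPM threshold, the lowest females of LOC115712394, LOC115704690 and LOC115700296 stood at 5.80, 6.63 and 6.94 CPM. Just outside it, those of LOC115705786, LOC115701033 and LOC115712570 stood at 4.74, 4.73 and 4.50 CPM.

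**Figure D2:**
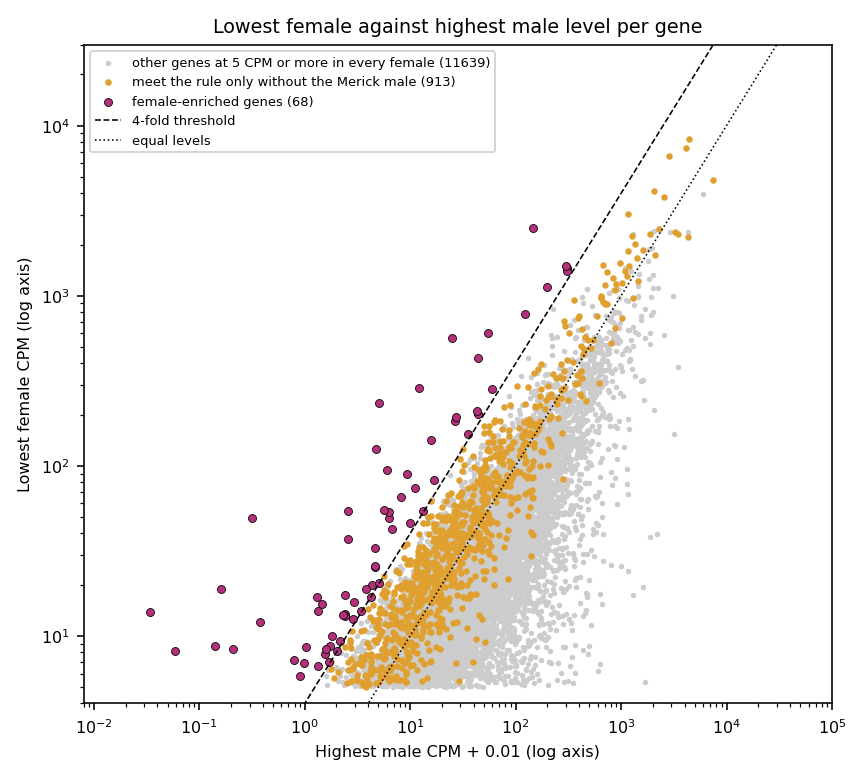
Lowest female CPM against highest male CPM + 0.01 for every gene at 5 CPM or more in all females, both on log axes; the dashed line is the 4-fold threshold and the dotted line marks equal levels. The 68 female-enriched genes lie left of the dashed line, while 913 genes that would join them without the Merick male lie to its right.

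Fitted to all 6 libraries, the log2 fold change (female over male) of the 68 genes ran from 2.39 to 11.4 with a median of 4.24, where the median of all 19276 tested genes was -0.00025. Without the Merick male it ran from 2.27 to 13.04 with a median of 4.50. All 68 genes passed the filter on low counts. In edgeR's quasi-likelihood test with Benjamini-Hochberg adjustment, 63 of the 68 were called higher in female flowers at an adjusted p under 0.05, against 4.75% of all tested genes. With 1 female left out, that count was 11 for Knox (0.0755% of all tested genes), 13 for Madison (0.0904%) and 24 for Merick (0.281%). With 1 male left out, it was 65 for Merick (18.8%), 42 for Knox (0.675%) and 11 for Madison (0.0966%). The share called among all tested genes thus fell or rose together with the count among the 68. The rule used this contrast and fixed its direction, so nothing is read from these counts. LOC115721690, on chromosome 9, had 568, 428 and 1308 CPM in the Knox, Madison and Merick females and 39.6, 0.02 and 43.9 CPM in the males of those locations. Its Madison male held 1 read, so the males of this gene differed more among themselves than the females did.

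The spread among the females was described by the ratio of the highest to the lowest female. The highest female was a median of 2.45 times the lowest for the female-enriched genes, against 1.46 times for the 12620 genes at 5 CPM or more in every female. It was over 4 times the lowest for 15 of the 68 genes (22.1%), against 2.75% of the 12620. It was under 1.5 times for 16 of the 68 (23.5%), against 53.4%. The Knox female was the highest for 32 genes, the Merick female for 27 and the Madison female for 9. Over the 12620 genes the Knox female was the highest for 34.7%, the Merick female for 28.0% and the Madison female for 37.3%. These shares are a description without a test, since the genes were chosen on the same libraries.

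The steadiest genes in females were LOC115700624, LOC115699485, LOC115703186 and LOC115705788. LOC115703186, on X, averaged 95.6 ± 6.30 CPM in the female libraries and 7.56 ± 2.22 CPM in the male ones (SD, n = 3 each; log2 fold change 3.59, SE 0.36). LOC115699485, also on X, averaged 52.7 ± 3.43 CPM in the female libraries and 4.03 ± 2.21 CPM in the male ones (SD, n = 3 each). LOC115700624, on chromosome 8, stood at 54.1, 56.0 and 58.9 CPM in the Knox, Madison and Merick females, but at 1.46, 12.8 and 13.2 CPM in the males of those locations. An even level in females thus came with an uneven level in males. LOC115705788, on chromosome 1, stood at 243, 237 and 210.0 CPM in the females and at 33.1, 42.9 and 18.5 CPM in the males.

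In some genes a single female stood more than 2-fold from both others, and each of the 3 locations had such genes. In 10 of the 68 genes (14.7%) the Merick female was more than 2-fold below both other females, against 4.67% of the 12620 genes. LOC115712311, on chromosome 4, stood at 305, 213 and 13.3 CPM in the Knox, Madison and Merick females, and at 2.31, 1.39 and 0.04 CPM in the males of those locations. LOC115700526, on chromosome 8, stood at 345, 203 and 11.998 CPM in the females and at 0.17, 0.37 and 0.15 CPM in the males. The Merick library was the lowest of each sex in both genes, although the males of the second rest on 7, 15 and 7 reads from Knox, Madison and Merick.

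LOC115712639, on X, stood at 3213, 2460.2 and 606 CPM in the Knox, Madison and Merick females and at 53.5, 22.7 and 55.2 CPM in the males of those locations. LOC115719008, on chromosome 2, stood at 846, 528 and 126 CPM in the females and at 0.20, 0.15 and 4.69 CPM in the males. In both of these the Merick library was the lowest female and the highest male, so the low Merick female was not matched in the Merick male. The other 6 genes of this pattern were LOC115696872, LOC115699020, LOC115708921, LOC115710658, LOC115717255 and LOC115718819.

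In 6 genes (8.82%) the Merick female was more than 2-fold above both other females, against 2.39% of the 12620. LOC115724887, on chromosome 6, stood at 19.6, 15.4 and 159 CPM in the Knox, Madison and Merick females and at 0, 1.44 and 0 CPM in the males of those locations. LOC115709616, on chromosome 3, stood at 198, 155 and 1229 CPM in the females and at 9.42, 35.3 and 16.8 CPM in the males. In both genes the highest male was from Madison and not from Merick. The other 4 were LOC115697755, LOC115698725, LOC115707554 and LOC115721690, and in each of these the Merick male was the highest male. The 2-fold limit for these patterns was set after the values had been seen.

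**Figure D3:**
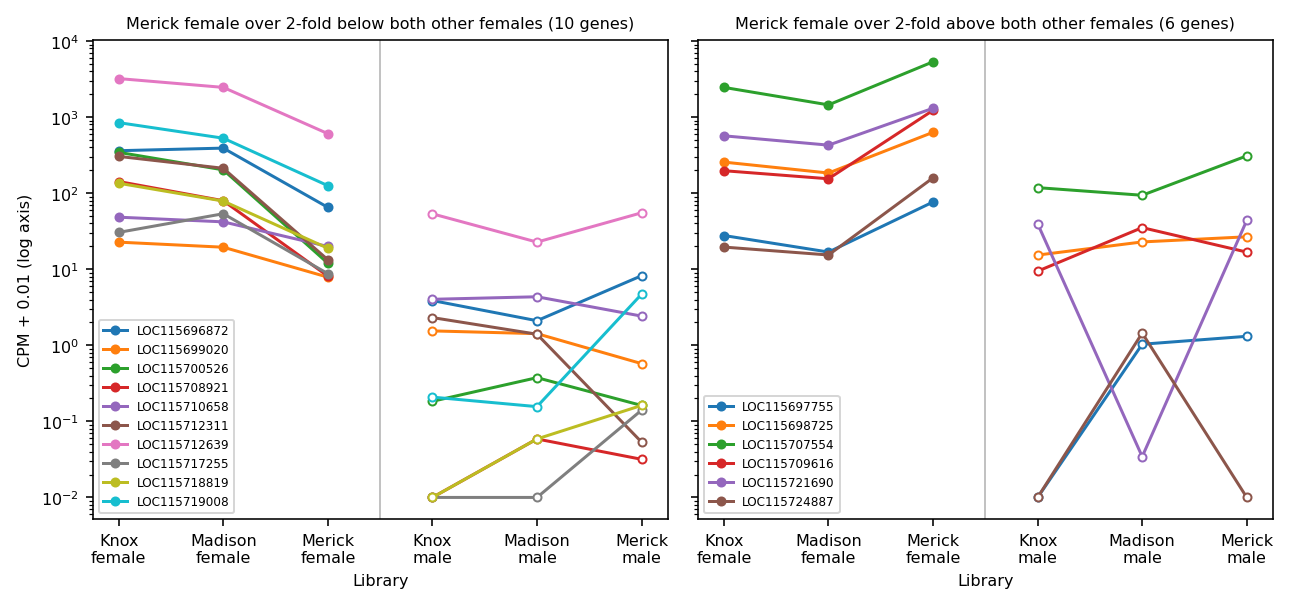
CPM + 0.01 on a log axis in each library, females (filled points) left of males (open points), for the genes in which the Merick female was more than 2-fold below (left panel, 10 genes) or above (right panel, 6 genes) both other females. Lines join the libraries of one sex for one gene and mark no order. The highest male differed between genes in each panel, and in the right panel it was from Merick or from Madison.

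The Knox female was more than 2-fold above both others in 5 genes (7.35%, against 0.87% of the 12620): LOC115708341, LOC115709296, LOC115712431, LOC115713279 and LOC115723347. It was more than 2-fold below them in none. LOC115709296, on chromosome 3, stood at 733, 222 and 142 CPM in the Knox, Madison and Merick females and at 7.46, 11.0 and 15.9 CPM in the males of those locations. The Madison female was more than 2-fold below both others in 7 genes (10.3%, against 0.94% of the 12620), LOC115723437 and LOC115721896 among them. It was more than 2-fold above them in 2 genes (2.94%, against 0.61%), LOC115701418 and LOC115707934. LOC115707934, on chromosome 1, stood at 193, 663 and 201 CPM in the females and at 12.7, 10.9 and 27.5 CPM in the males.

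Whether location shifts the female-enriched genes in both sexes was asked with an F-test of the location term beside sex. The rule named no location, but it used all 6 libraries and so limits how low a female or how high a male of any location can be in these genes, and the values below are therefore a description of them. The quasi-likelihood test of edgeR called none of the 68 genes, and 0% of all 19276 tested, with adjusted p values of 0.71 or more. Without adjustment, 7 of the 68 genes had a p under 0.05, beside 6.93% of all tested genes. That count was 12 without the Knox female (5.77% of all tested genes), 5 without the Madison female (4.57%), 16 without the Merick female (21.0%) and 17 with the Merick male left out (7.93%). It was 7 when the male left out was from Knox (3.85%) or from Madison (4.07%). The smallest unadjusted p values in the group by edgeR were 0.00084 for LOC115712311, 0.013 for LOC115707554 and 0.017 for LOC115719017. DESeq2's likelihood-ratio test called 5 of the 68, beside 3.72% of all genes it tested. These were LOC115712311 (adjusted p = 1.0e-08 by DESeq2), LOC115707554 (0.0020), LOC115708341 (0.013), LOC115719017 (0.013) and LOC115723347 (0.028). With 1 library for each sex and location, 2 residual degrees of freedom remained. The absence of calls by edgeR does not show that locations are alike.

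Among males, the Merick library was the highest in 41 of the 68 genes (60.3%), the Madison male in 14 and the Knox male in 13. The Merick male was also the highest in 51.1% of the 12620 genes. It was more than 2-fold above both other males in 18 of the 68 (26.5%), against 20.1% of the 12620. The Knox male was more than 2-fold below both others in 15 (22.1%), against 4.52%. The rule holds these genes low in males: the Knox male median was 1.83 CPM, against 29.8 CPM over the 12620. Folds between males can therefore rest on few reads. LOC115712431 counts here with 0 reads in the Knox male and 1 in each other male. On the log2(CPM + 0.1) scale, the Merick male exceeded the mean of the other males by a median of 0.97 over the 68 genes, against 0.20 over the 12620. The female minus male difference within a location had a median of 4.65 in Knox, 4.33 in Madison and 3.89 in Merick on that scale.

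The Merick male decided how many genes met the rule. Without it, 981 genes did so, all 68 among them. The other 913 had a median of 39.8, 39.9 and 48.5 CPM in the Knox, Madison and Merick females. Their male medians were 3.45 CPM in Knox and 4.34 CPM in Madison, but 25.7 CPM in Merick. Without any one other library, between 85 (without the Madison male) and 188 (without the Merick female) genes met it. Dropping a library loosens the rule, so the count could not fall.

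The rule was then applied to the 4 libraries of a pair of locations, and the chosen genes were read in the location left out, whose libraries had no part in the choice. Each location holds 1 library of each sex, so these are values without a test. With Knox left out, 122 genes were chosen, of which 100 (82.0%) were at least 4-fold higher in the Knox female than in the Knox male. Of the 12836 genes at 5 CPM or more in both females used, 15.0% were. With Madison left out, 148 genes were chosen, and 110 (74.3%) were at least 4-fold higher in the Madison female than in the Madison male, against 14.3% of 12905. The female excess seen in a pair of locations was thus mostly met again at this size in Knox or in Madison.

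With Merick left out, 1304 genes were chosen, and 193 (14.8%) were at least 4-fold higher in the Merick female than in the Merick male, against 2.83% of 13362. The female level was the higher of the pair in 1038 of the 1304 (79.6%), against 43.5% of the 13362. Their median log2 difference in Merick was 0.83, against -0.13 for the 13362. For the chosen genes, the median was 34.6 CPM in the Merick female and 18.6 CPM in the Merick male. The 68 female-enriched genes are by definition contained in each of the 3 chosen lists.

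**Figure D4:**
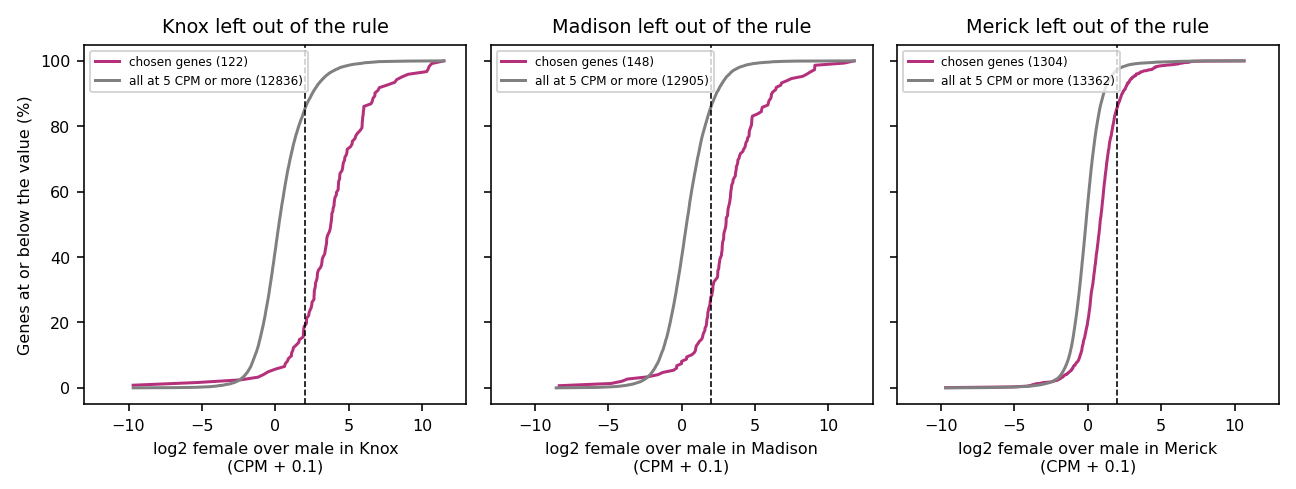
Cumulative share of genes (percent) by log2 female over male level, from CPM + 0.1, in the location left out of the rule: Knox, Madison and Merick from left to right. Red lines are the 122, 148 and 1304 genes chosen on the other locations, and grey lines all genes at 5 CPM or more in both females used. The dashed line is 4-fold. On CPM without the added 0.1, 82.0%, 74.3% and 14.8% of the chosen genes were at least 4-fold higher in the female.

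In the Pink pepper assembly, 62 of the 68 genes are placed on a chromosome, 11 of them on X (17.7%, exact binomial 95% interval 9.20% to 29.5%). Of the 12620 genes at 5 CPM or more in every female, 12.4% of those placed are on X. The interval treats genes as independent draws, which neighbouring genes need not be. Chromosome 3 held 8 genes (12.9%, against 8.44%), chromosome 4 held 8 (12.9%, against 11.5%) and chromosomes 1 and 8 held 7 each (11.3%, against 15.8% on chromosome 1 and 11.0% on chromosome 8). The labels name no build for the counts, so the assembly is used for chromosomes and gene order and no positions are given.

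The 11 genes on X range from LOC115704295, with 22 reads over all males, to steady genes with moderate differences. LOC115704295 had the largest log2 fold change of them, 9.11 (SE 1.07), followed by LOC115719017 with 7.85 (SE 1.13) and LOC115712639 with 5.50 (SE 0.76). The long non-coding RNA LOC115714132 averaged 18.5 ± 4.28 CPM in the female libraries and 0.78 ± 0.49 CPM in the male ones (SD, n = 3 each; log2 fold change 4.52, SE 0.55). The other 7 had log2 fold changes of 3.15 (LOC115701393) to 3.70 (LOC115699485). They averaged 10.04 to 95.6 CPM in females and 1.12 to 7.56 CPM in males.

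On chromosome 3, 6 of the 8 genes lie in 2 short stretches of the gene order. For all stretches described here, that order holds only counted genes placed in the assembly. The stretches were picked because their genes lie close, and how often other genes lie as close was not tested. In the first, LOC115709440 and LOC115701195 are direct neighbours among the counted genes, and LOC115709616 follows after 3 others. LOC115701195 stood at 545, 432 and 286 CPM in the Knox, Madison and Merick females, against 4.88, 6.36 and 12.2 CPM in the males of those locations. The 3 genes in between, LOC115709239, LOC115709240 and LOC115708764, stood at 0.86 to 21.5 CPM in females and 0.07 to 17.9 CPM in males, and none was called between the sexes (adjusted p 0.28 to 0.61 by edgeR). All 3 had overlapping female and male levels.

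In the second stretch, LOC115716710 and LOC115708791 are direct neighbours, and LOC115709853 follows after 4 others. LOC115716710 stood at 109, 94.3 and 146 CPM in the Knox, Madison and Merick females, against 6.07, 1.27 and 1.87 CPM in the males of those locations. Of the 4 genes in between, LOC115709850 stood at 507, 349 and 738 CPM in the females and at 2.23, 7.85 and 150.0 CPM in the males. Every female lay above every male, but the Merick male kept it outside the rule. LOC115709849 stood at 663, 143 and 494 CPM in the females and at 299, 416 and 10.4 CPM in the males, so the sexes overlapped. LOC115710536 had no reads in any library, and LOC115709840 stood higher in each male than in any female.

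On X, LOC115712639 and LOC115719017 are separated by 3 genes. Of these, LOC115719027 had no reads, and the long non-coding RNA LOC115701140 had overlapping levels of 0.16 to 1.19 CPM in females and 0.46 to 1.86 CPM in males. The long non-coding RNA LOC115707902 stood at 20.2, 19.3 and 11.1 CPM in the Knox, Madison and Merick females and at 7.07, 0.02 and 4.52 CPM in the males of those locations. Reads without a unique alignment were not counted, so neighbours that are near-identical copies would be undercounted. Without a stated strand setting, overlapping genes are uncertain. Neither was tested for these stretches.

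**Figure D5:**
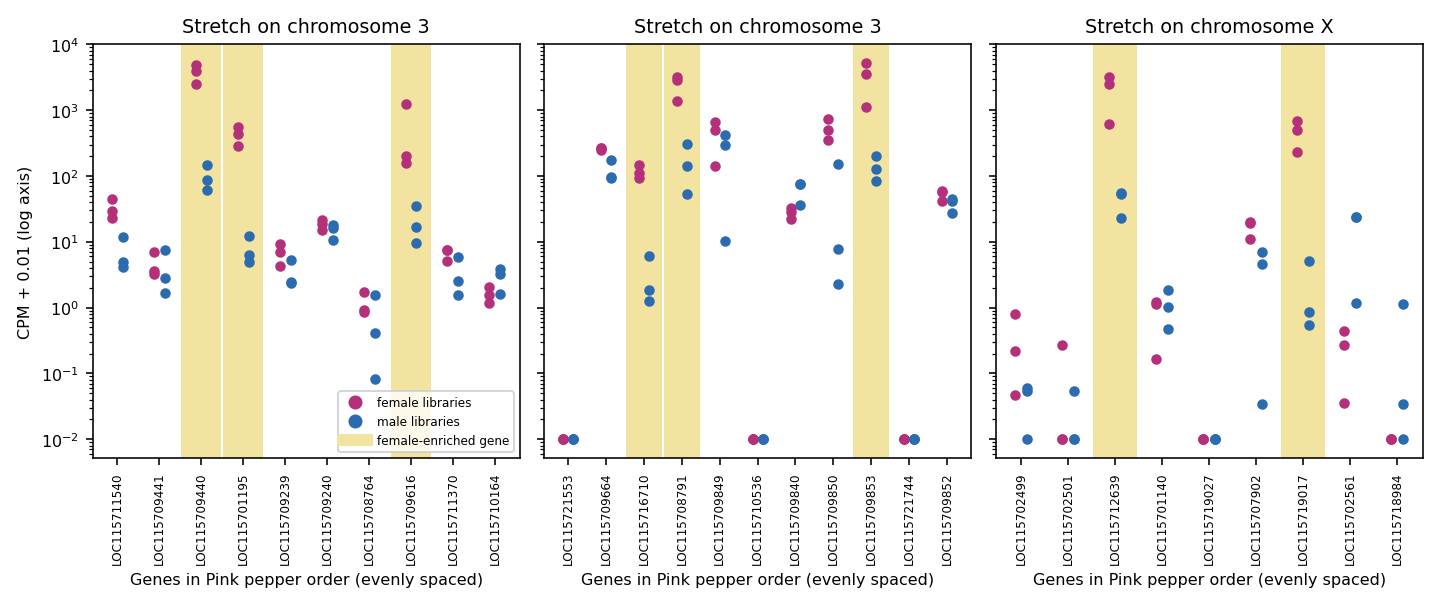
CPM + 0.01 on a log axis for the genes of 3 stretches in Pink pepper order, evenly spaced, with 2 genes on either side; each gene has its 3 female libraries (red, left) and 3 male libraries (blue, right), and shaded genes are female-enriched. Shaded genes are separated by a factor of at least 4 between the sexes, while most unshaded genes between them overlap or have no reads.

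With all libraries used, none of the 6 loci that the gene table pairs with a common name met the rule. OAC (LOC115723438), olivetolic acid cyclase of the cannabinoid pathway, came closest, with a lowest female of 49.8 CPM (Madison) and a highest male of 23.4 CPM (Merick), a ratio of 2.13. CBDAS (LOC115697762), which makes cannabidiolic acid, had a lowest female of 80.2 CPM (Madison) and a highest male of 75.2 CPM (Merick). TPS1, CHS and the PKSG locus had ratios under 1, with the Merick male as the highest male in each. In the Knox and Madison males, OAC stood at 1.54 and 4.09 CPM and CBDAS at 0.50 and 2.66 CPM. The PKSG locus stood at 2.11 and 8.24 CPM there, below its lowest female of 47.1 CPM (Knox). Without the Merick male, OAC, CBDAS and the PKSG locus met the rule, and the other named loci did not. LOC115696884, whose listed names are CBDAS2, CBDAS3 and THCA5, had reads in the Merick libraries only.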

How the data were processed

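RNA was sequenced from 3 female and 3 male flower libraries. The authors deposited raw counts per gene, as their whole-number values show. Each table has 29777 genes and ends in 5 rows of unassigned reads with htseq-count's row names. Aligner, build, annotation and strand setting were each not given in the sources used here. Unassigned reads, 14.9% to 18.1% of those listed, were left out. Groups follow the sex label.

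CPM, the rule and all summaries were computed in Python 3.11.15. Female over male and the location term (beside sex) were fitted over all genes with edgeR 4.0.16 in R 4.3.3: TMM scaling, filterByExpr (19276 genes), robust dispersions, quasi-likelihood tests and Benjamini-Hochberg adjustment at 0.05. A fold change's SE is the fold change divided by the root of F. DESeq2 1.42.0 and limma-voom (limma 3.58.1) were alternatives, beside other scalings, filters and thresholds, thinning, and leaving out each library. The fits were tested on simulated data.

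The members, lists and thresholds were chosen with earlier results of these data known. Named genes are the 8 with the highest mean female CPM, the 8 with the largest ratio, the 4 steadiest and 4 most variable in females, the 3 with the smallest location p, those nearest the thresholds and the closest neighbours. Others named to complete a count of 10 or fewer, or a stretch, were chosen after their values were seen. Protein similarity and protein signatures, part of that rule, were not used here. Names, gene order and chromosomes come from a RefSeq table of the Pink pepper assembly, which holds 23050 of 29283 LOC symbols.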

Additional observations from a re-analysis of the deposited data

How the results depend on the processing

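The number of female-enriched genes was 131 with a 3-fold and 26 with an 8-fold requirement, and 85 to 981 with 1 library left out, the 981 being without the Merick male. It was 68 on TMM-scaled CPM, with 61 genes shared, and 53 to 88 under the other minimum levels and with equal depth. Their X share was 11.6% to 20.8% over the alternatives run. In the location left out, 91.0% (Knox), 88.5% (Madison) and 43.6% (Merick) of chosen genes reached 2-fold, and 63.9%, 53.4% and 5.60% reached 8-fold. On TMM-scaled CPM the Merick share at 4-fold was 20.3%. Calls of the 68 genes between the sexes numbered 11 to 65 by edgeR with 1 library left out (beside 0.0755% to 18.8% of all tested genes) and 58 to 66 under the other alternatives, DESeq2 and limma-voom included (2.76% to 13.2%). DESeq2 called 5 in the location term; limma-voom and each edgeR alternative called 0. The cause was not tested. With location as a replicate block, 58 were called (beside 3.69% of all tested genes). A shared location was not treated as a pairing. Over all tested genes, deviations from the sex mean correlated at 0.13 between the Knox libraries, 0.00010 between the Madison ones and 0.17 between the Merick ones. The Madison female stood closest to the Knox male (0.14). Over the 12620 genes at 5 CPM or more in every female, the Knox, Madison and Merick pairs correlated at 0.23, 0.048 and 0.32. Over the 68 genes they correlated at 0.32, -0.027 and 0.20. Crossed pairs were not computed for those sets. Fold changes of the named female-enriched genes reversed in no alternative. The rule set every female far above every male in these genes, so their direction was fixed and nothing is read from it. Of the values, 239 kept their side of the threshold, 96 lost it and 6 gained it. Depth limits the ratios of genes with few male reads.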
